A study of Mus musculus with 6 samples.

Results

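Genes linked to the identity of atrial heart muscle, none of them a myosin gene, were followed in the ventricles of miR-499 transgenic mice. These 8 genes were Sln, Mybphl, Stard10, Bmp10, Nr2f1, Nr2f2, Tbx5 and Pam, taken by name with earlier results of these data known. Of these, 8 of 8 were measured among 19938 genes. Each was read from the probe set that carries exactly 1 gene symbol in the array annotation and has the highest mean log2 value over the 6 mice. Each of the 8 had 1 such probe set. The groups were 3 TG mice (line TG-17, founded in FVB/NCrl embryos, with miR-499 driven by the Myh6 promoter of heart muscle cells) and 3 wild-type (WT) littermates, all at postnatal day 17. TG-17 is a single transgenic line, with less miR-499 than another line made in the study, and its promoter is that of a gene of heart muscle cells. Total RNA of ventricular tissue was hybridised to Mouse Gene 1.0 ST arrays of Affymetrix, with 1 array for each animal. The deposited values are log2 values after RMA, a method that corrects background, equalises the arrays by quantiles and summarises the probes of a transcript. The question was whether atrial genes were lower together in each transgenic mouse.

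The chambers of the heart use overlapping but distinct gene programs. T-box factors and the COUP-TF nuclear receptors act early to set atrial identity, and mature atrial muscle carries its own calcium pump inhibitor, its own thick filament proteins and dense secretory granules for natriuretic peptide. Several of these genes are also expressed in the ventricular conduction system or in vessels. In these ventricles the signals of Pam, Nr2f2, Stard10 and Tbx5 were above 98.7%, 78.1%, 75.5% and 71.6% of all probe sets. Not all of the 8 genes therefore set atrial muscle apart from these samples. In bulk ventricle, fewer cells of a type and less RNA per cell cannot be told apart. The microRNA carried by the transgene is shown here because its expression defines the groups, with its seed (bases 2 to 8) in capitals. The sequence is that of RefSeq on GRCm38.p6, chr2:155622893-155622913, plus strand.
mmu-miR-499-5p: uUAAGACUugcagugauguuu

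The probe set of Mir499 had log2 values of 9.31, 9.33 and 8.87 in TG mice, against 5.48, 5.34 and 5.68 in WT mice, so each array matched its label (12.7-fold higher, adjusted p = 0.00772 from limma). The ventricular light chain Myl2, the defining marker of the dissected tissue, was at 13.73 to 13.77 in TG and 13.59 to 13.67 in WT mice. The median of an array was 6.89 to 6.91 in TG and 6.93 to 6.95 in WT mice. A gene was called at B above 0, where B is the log odds of a difference from limma, the less stringent cut-off used by the authors, and adjusted p values are from limma over all 35556 probe sets. Of all probe sets 0.366% were called, and of all genes 0.341%.

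None of the 8 atrial genes was called, and none passed an adjusted p of 0.05 from limma, which 0.00562% of probe sets and 0.01% of genes did. The largest of the 8 differences were in Mybphl, which was 1.38-fold lower in TG mice, and Sln, at 1.25-fold lower, while Pam was 1.13-fold higher. By limma's p below 0.05 before adjustment, 2 of 8 were lower and 1 of 8 was higher, where 8.76% of all genes were lower and 6.65% were higher by that p. Without TG replicate 2, 4 of 8 were lower by that p, Bmp10 and Tbx5 beside Sln and Mybphl, and 1 was higher. The shares of all genes by that p were not counted in that fit, so these counts have no background. With an intensity trend in limma 1 of 8, Pam, was called, where 287 of all 35556 probe sets were called, against 130 without the trend. All 3 TG values lay below all 3 WT values in Sln, Mybphl and Tbx5, and above them in Pam. Of all genes 13.6% had every TG value below every WT value and 12.2% had every TG value above, 25.8% in all. The mean was lower in TG mice for 6 of the 8, where it was lower for 55.6% of all genes. The 8 genes and the lists below were chosen with earlier results of these data known. Their counts beside the shares of all genes therefore only describe them. The smallest adjusted p from limma among the 8 was 0.224. With 3 mice against 3, an exact two-sided permutation test of a single gene cannot give a p below 0.1.

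**Figure D1:**
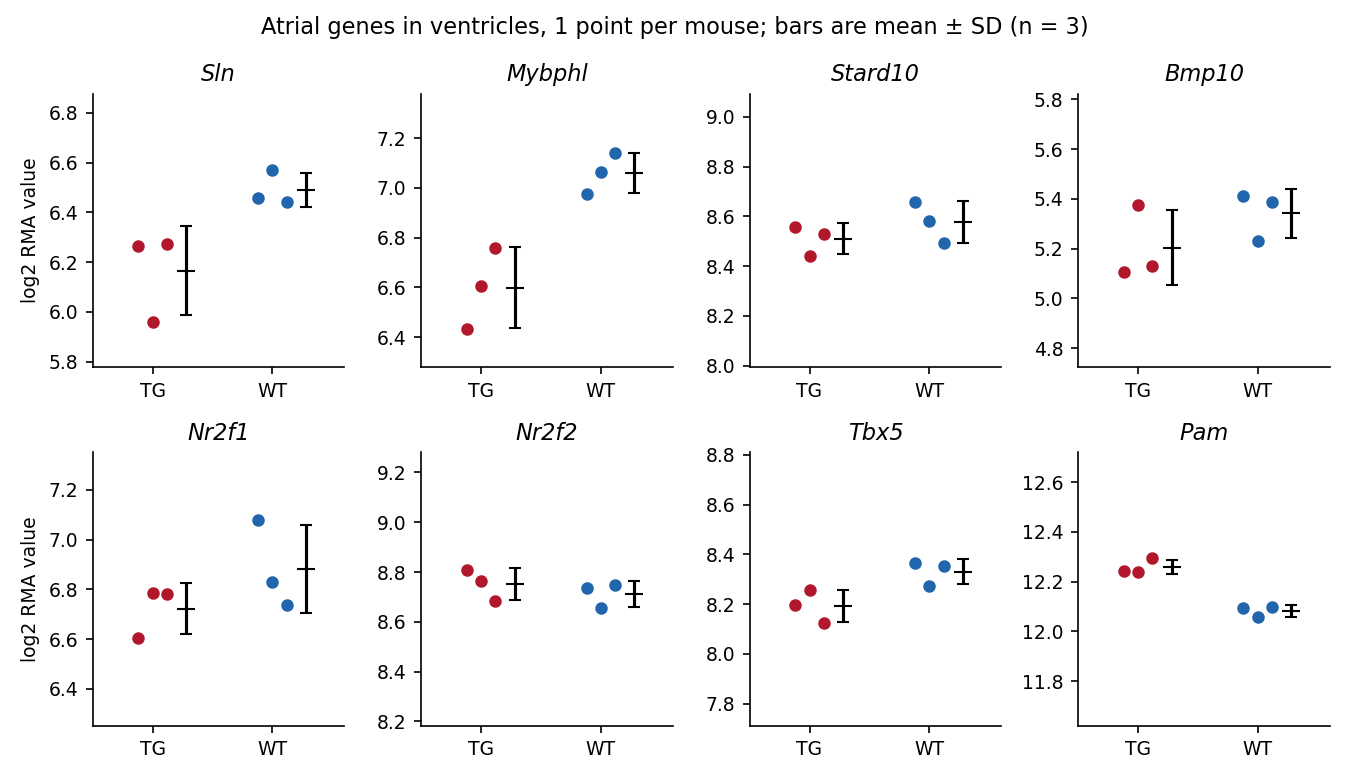
Log2 RMA value (vertical axis, same span of 1.1 units in each panel) of the 8 atrial genes in TG (red) and WT (blue) ventricles, 1 point per mouse, with the mean and 1 SD of each group (n = 3) as a black bar. The TG points lie apart from and below the WT points for Sln, Mybphl and Tbx5 and above them for Pam, and the points of Stard10, Bmp10, Nr2f1 and Nr2f2 overlap.

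Sln and Mybphl are parts of the contractile and calcium machinery of atrial muscle. Mybphl encodes myosin-binding protein H-like, a thick filament protein of atrial muscle and of the ventricular conduction system. Its log2 values were 6.43, 6.61 and 6.76 in TG mice, against 6.98, 7.06 and 7.14 in WT mice. Every TG value was lower than every WT value (6.60 ± 0.16 in TG and 7.06 ± 0.082 in WT, SD, n = 3 each). The difference was -0.46 on the log2 scale (standard error 0.096, 95% interval -0.69 to -0.23), with a B of -1.09 and an adjusted p = 0.224 from limma. Of the myosin-binding proteins related to it, 0 of 4 had a limma p below 0.05 before adjustment, where 15.4% of all genes did. Mybpc3, the main cardiac form, had a log2 difference of -0.015, and Mybpc2, the fast skeletal form, one of 0.11. Mybph had a log2 difference of -0.078 and Mybpc1 one of 0.021.

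Sln encodes sarcolipin, a small membrane protein that inhibits the calcium pump of the sarcoplasmic reticulum and is abundant in atria. Its log2 values were 6.26, 5.96 and 6.27 in TG mice, against 6.46, 6.57 and 6.44 in WT mice. The second TG mouse was the lowest, and the other two TG mice were also below every WT mouse. The difference was -0.32 on the log2 scale (standard error 0.099, 95% interval -0.56 to -0.083), with a B of -2.80 and an adjusted p = 0.260 from limma. Without that TG mouse the log2 difference was -0.22. Of 7 measured genes of the pump, its other small inhibitors and calcium release, 0 were called, where 0.341% of all genes were. By limma's p below 0.05 before adjustment 0 passed, where 15.4% of all genes did. Strit1, Erln and Arln, listed with them, were not found. The bright pump gene Atp2a2 and inhibitor gene Pln had log2 differences of -0.025 and -0.0022. Ryr2, the calcium release channel, had a log2 difference of -0.11, and Casq2, the calcium buffer of the reticulum, one of 0.075. Mrln, the skeletal muscle inhibitor of the pump, had one of 0.12, and Atp2a1, the fast muscle pump, one of -0.10. With 1 mouse left out, Casq2 ranged from 0.034 to 0.13, Mrln from 0.055 to 0.18 and Atp2a1 from -0.16 to -0.020.

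Tbx5, Nr2f1 and Nr2f2 are the transcription factors of the group. Tbx5 is a T-box activator of chamber and conduction genes. Its log2 values were 8.20, 8.26 and 8.13 in TG mice, against 8.36, 8.27 and 8.36 in WT mice. The groups did not overlap, but the highest TG value and the lowest WT value lay close together (8.26 and 8.27). The difference was -0.14 on the log2 scale (standard error 0.059, 95% interval -0.28 to 0.0052, adjusted p = 0.335 from limma). Of 11 other T-box genes and Tbx5 partners none was called. By limma's p below 0.05 before adjustment, 3 were higher and 1 was lower, where 6.65% and 8.76% of all genes were. Tbx20, a chamber muscle T-box factor, had a log2 difference of 0.24, and Tbx3, a repressor that acts in the conduction system, one of 0.31. Tbx15 and Tbx1 had log2 differences of 0.19 and -0.20.

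Nr2f1 and Nr2f2 encode the orphan nuclear receptors COUP-TFI and COUP-TFII, and Nr2f2 is required for atrial identity in mice and is also expressed in veins. Nr2f1 had log2 values of 6.60, 6.78 and 6.78 in TG mice, against 7.08, 6.83 and 6.74 in WT mice. The first WT mouse was high, and the groups overlapped. The log2 difference was -0.16 (standard error 0.10, 95% interval -0.41 to 0.095, adjusted p = 0.500 from limma), and it was -0.061 without the first WT mouse. Nr2f2 had log2 values of 8.81, 8.76 and 8.68 in TG mice, against 8.74, 8.65 and 8.75 in WT mice. TG mice 1 and 2 lay above every WT mouse and TG mouse 3 lay within the WT range. The log2 difference was 0.039 (95% interval -0.10 to 0.18), which leaves out a decrease of the size seen in Sln, and it was 0.0095 without WT replicate 2 and 0.074 without TG replicate 3. Of 7 related receptors and partners none was called. The retinoid receptor Rxra alone had a limma p below 0.05 before adjustment, where 15.4% of all genes did. Its log2 difference was 0.13. The others with the smallest p were Nr2f6, Rxrb and Rarg, at log2 differences of -0.11, -0.036 and -0.035.

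Bmp10 and Pam belong to the secretory side of the atrial program. Bmp10 is a ligand of the bone morphogenetic protein family that after birth is made mainly in the right atrium. Its log2 values were 5.11, 5.38 and 5.13 in TG mice, against 5.41, 5.23 and 5.39 in WT mice. The second TG mouse lay among the WT mice and the second WT mouse was the lowest of its group. The log2 difference was -0.14 (standard error 0.094, 95% interval -0.37 to 0.090, adjusted p = 0.513 from limma), and it was -0.22 without the second TG mouse. The signal was in the lower part of the array's range (above 20.8% of all probe sets). Of 16 related ligands, receptors and targets none was called. By limma's p below 0.05 before adjustment, 5 were higher and 0 were lower, where 6.65% and 8.76% of all genes were. That background holds genes of any signal, and in the brightest of 5 equal groups of genes only 27.4% had a lower mean in TG mice. Myocd, Eng and Id1 were in that group by signal. Myocd, the muscle coactivator myocardin, had a log2 difference of 0.41, and Smad7, an inhibitor of the pathway, one of 0.31. The coreceptor Eng and the target Id1 had log2 differences of 0.18 and 0.26.

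Pam encodes peptidylglycine alpha-amidating monooxygenase, which amidates peptide hormones and is a major membrane protein of atrial secretory granules. It was the single member whose TG values all exceeded the WT values. Its log2 values were 12.24, 12.24 and 12.29 in TG mice, against 12.09, 12.06 and 12.10 in WT mice. The gap between the groups was larger than the spread within them (12.26 ± 0.030 in TG and 12.08 ± 0.024 in WT, SD, n = 3 each). The difference was 0.18 on the log2 scale (standard error 0.048, 95% interval 0.059 to 0.29), with a B of -2.33 and an adjusted p = 0.242 from limma. When limma allowed the spread to vary with intensity, its B was 0.35. Of 12 measured genes of peptide processing and granules 1 was called, the natriuretic peptide gene Nppb, which rose by 0.97 on the log2 scale. It was not called without TG replicate 2 or 3 or WT replicate 1 or 2. Scg5 and Scg3, granule proteins of endocrine cells, had log2 differences of -0.14 and 0.14, and Chga, chromogranin A, one of -0.13.

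Stard10 encodes a phospholipid transfer protein with a START domain. Its log2 values were 8.56, 8.44 and 8.53 in TG mice, against 8.66, 8.58 and 8.49 in WT mice. The groups overlapped, with a log2 difference of -0.068 (standard error 0.066, 95% interval -0.23 to 0.092, adjusted p = 0.644 from limma). It ranged from -0.11 without WT replicate 3 to -0.027 without WT replicate 1. Of 7 other START domain genes none was called. The endosomal cholesterol carrier Stard3 alone had a limma p below 0.05 before adjustment, where 15.4% of all genes did. Its log2 difference was -0.19. Star, Stard5 and Stard7 had log2 differences of -0.22, -0.14 and 0.081.

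Set against the mean of the WT mice, 6, 5 and 7 of the 8 genes were lower in TG mice 1, 2 and 3. Of all genes 51.1%, 56.6% and 54.3% were lower in the same mice. Each WT mouse, set against the other 2 WT mice, had 2, 5 and 3 of the 8 genes lower. The median deviation over the 8 genes was -0.18, -0.086 and -0.15 in TG mice 1, 2 and 3, and 0.042, -0.059 and 0.031 in WT mice 1, 2 and 3, each WT mouse again set against the other 2. Over all genes it was -0.0033, -0.023 and -0.016 in TG mice 1, 2 and 3. No mouse carried the lower values of every gene. Of the 8, 5, 4 and 4 lay below every WT value in TG mice 1, 2 and 3, where 30.1%, 35.6% and 34% of all genes did so in these mice. Sln, Mybphl and Tbx5 lay below in each of the 3. Bmp10 did so in TG mice 1 and 3, Nr2f1 in TG mouse 1 and Stard10 in TG mouse 2. Pam lay above every WT value in each TG mouse and Nr2f2 in TG mice 1 and 2, where 28.6%, 25.9% and 28.4% of all genes lay above in TG mice 1, 2 and 3.

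**Figure D2:**
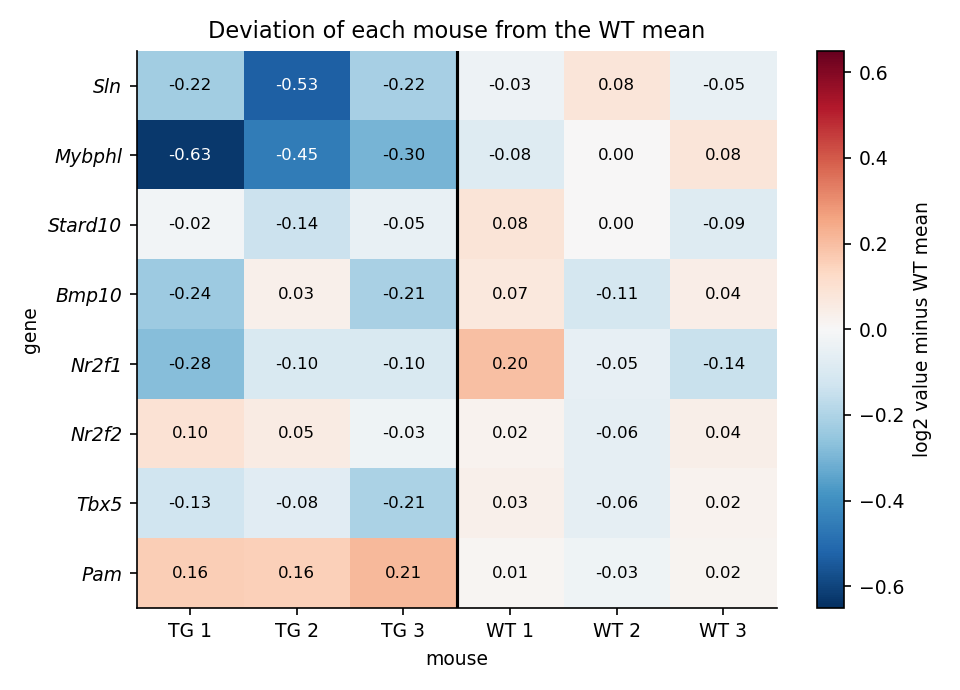
Log2 value of each atrial gene (rows) in each mouse (columns) minus the mean of the 3 WT mice, blue for lower and red for higher. Sln, Mybphl and Tbx5 are blue and Pam is red in all 3 TG columns, and the strongest blue of Mybphl (-0.63, TG 1), Sln (-0.53, TG 2) and Tbx5 (-0.21, TG 3) falls in a different mouse for each gene.

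The order of the mice within a genotype differed from gene to gene. Mybphl was lowest in TG mouse 1, Sln in TG mouse 2 and Tbx5 in TG mouse 3. TG mouse 1 was the lowest of its genotype for 3 genes, TG mouse 2 for 3 and TG mouse 3 for 2. WT mice 1, 2 and 3 were the lowest of theirs for 1, 4 and 3 genes. After the mean of each genotype was subtracted, Pearson's r over the 6 mice was above 0 for 14 of the 28 pairs of genes, with a median of -0.0073 and a range of -0.97 to 0.85. These 6 values share 2 subtracted means, so single pairs are loosely measured.

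The direction of the differences moved with signal strength over the whole array. Genes were cut into 5 groups of equal size by mean log2 value, and the share with a lower mean in TG mice was 66%, 72.7%, 67.3%, 44.6% and 27.4% from the dimmest to the brightest group. The median log2 difference of these groups was -0.050, -0.068, -0.053, 0.015 and 0.053. Sln, Mybphl, Bmp10 and Nr2f1 lay below the median signal of all probe sets, and Stard10, Nr2f2, Tbx5 and Pam above it. Against the median of the 1000 genes nearest in signal, the log2 difference was -0.39 for Mybphl, -0.26 for Sln and -0.15 for Tbx5, and 0.12 for Pam, most of whose neighbours are dimmer than itself. On the same scale it was -0.096 for Stard10, -0.089 for Nr2f1, -0.072 for Bmp10 and 0.0055 for Nr2f2. The 4 brighter genes alone had a median deviation of 0.039, -0.012 and -0.039 in TG mice 1, 2 and 3. The part of this array-wide shift in the differences of the atrial genes was not tested further.

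**Figure D3:**
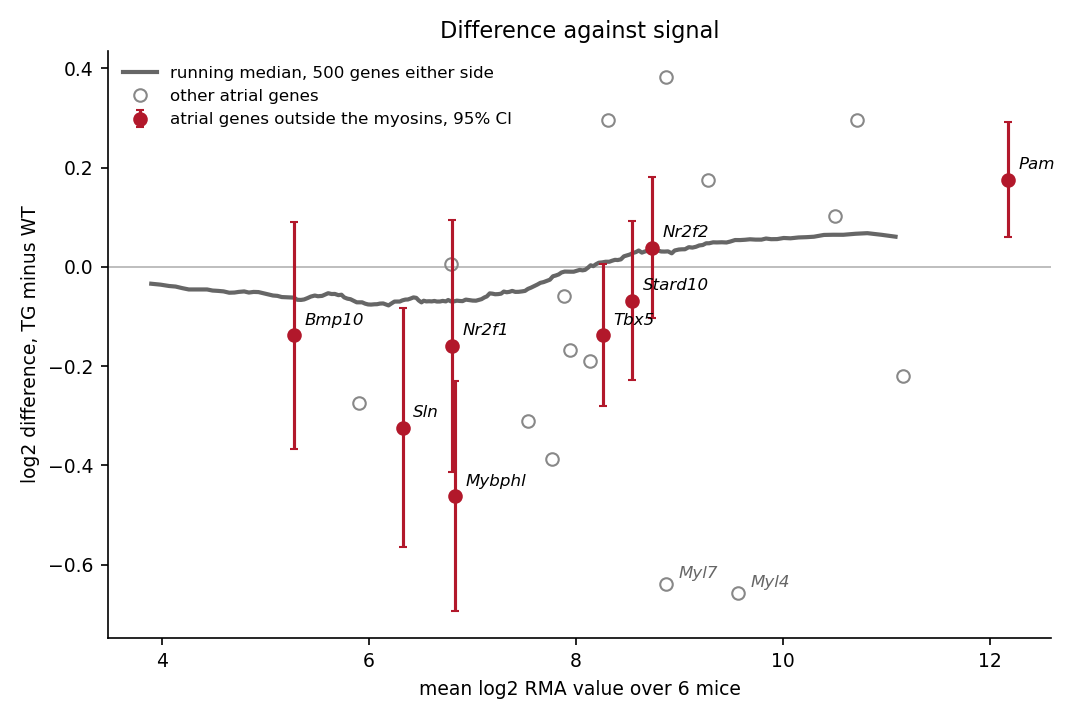
Log2 difference, TG minus WT (vertical axis), against the mean log2 RMA value over the 6 mice (horizontal axis) for the 8 atrial genes (red, with the 95% interval of limma) and for 15 other atrial genes (open circles). The grey line is the running median over 500 genes on either side, which passes from below 0 at low signal to above 0 at high signal, and Mybphl (-0.46) and Sln (-0.32) lie below it. Pam (0.18) is brighter than the range of the line and lies higher than its bright end.

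Of 15 other measured atrial genes, Myl4 and Myl7 fell and Clu rose at B above 0, where 0.211% and 0.13% of all genes were called lower and higher. By limma's p below 0.05 before adjustment, 8 were lower and 4 were higher, where 8.76% and 6.65% of all genes were. The median log2 difference was -0.17 over these 15, against -0.018 over all genes. These 15 were chosen with earlier results of these data known, and the value over all genes is not matched for signal. The comparison therefore only describes the list. The atrial light chain gene Myl7 had log2 values of 8.51, 8.60 and 8.54 in TG mice, against 9.34, 8.995 and 9.23 in WT mice. Those of the embryonic and atrial light chain gene Myl4 were 9.26, 9.27 and 9.18 in TG mice, against 9.98, 9.67 and 10.03 in WT mice. For both, the 3 TG mice lay close together and WT mouse 2 was the lowest of its group. Mybphl did not follow that order in the WT mice (lowest in WT mouse 1), and Sln was highest in WT mouse 2. Nppa, the atrial natriuretic peptide gene, had a log2 difference of -0.22 (adjusted p = 0.314 from limma), and of -0.13 without WT replicate 1. Dkk3, a secreted glycoprotein, had one of -0.39 and was called with named or with brighter probe sets only. Clu, which encodes the secreted chaperone clusterin, was 0.29 higher on the log2 scale. The calls of Myl4 and Myl7 were lost without TG replicate 1, 2 or 3 or WT replicate 1 or 3, and that of Clu without any single mouse.

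**Figure D4:**
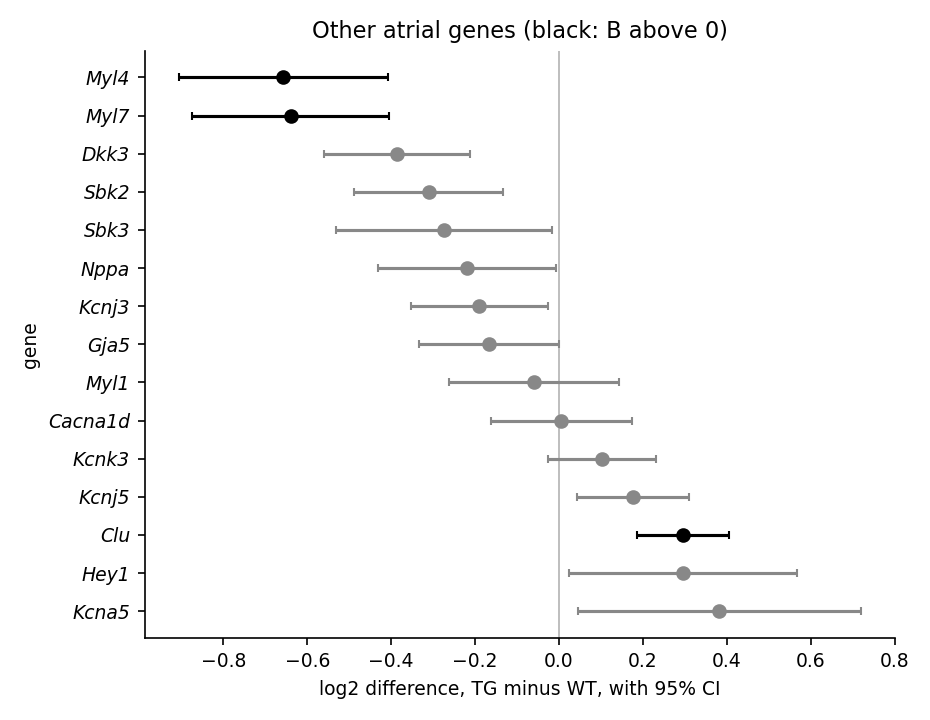
Log2 difference, TG minus WT, with its 95% interval from limma (horizontal axis) for 15 other atrial genes (rows), in black where B is above 0. Myl4 (-0.66) and Myl7 (-0.64) lie farthest to the left, and Kcna5 (0.38), Hey1 (0.30) and Clu (0.29) to the right.

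The potassium channel genes of the atrial list were on both sides of 0. Kcna5, the ultrarapid channel of atrial repolarisation, had a log2 difference of 0.38 (standard error 0.14), and Kcnj5 and Kcnj3, which together form the acetylcholine-gated channel, had differences of 0.18 and -0.19. Of 8 ventricular genes, Myh7 rose by 0.92 on the log2 scale at B above 0 and 7 were not called. It was not called without TG replicate 1, 2 or 3. Irx3, Myl2 and Hand1 had log2 differences of -0.21, 0.12 and -0.084. Of 12 measured pacemaker and conduction genes none was called. By limma's p below 0.05 before adjustment 5 were lower and 1 was higher, where 8.76% and 6.65% of all genes were. Hcn2, a pacemaker channel, had a log2 difference of -0.41 and Scn10a, a sodium channel of the conduction system, one of -0.45. The signal of Scn10a was in the lower part of the array's range (above 21.7% of all probe sets). Hcn2 was called when the fit held only named probe sets, only the brighter probe sets or an intensity trend, and Scn10a with named probe sets only. Gjd3, a connexin of conduction tissue, and Cntn2, a surface marker of the Purkinje network, had differences of -0.21 and -0.26.

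Markers of other cell types were read beside these genes, and none of 57 measured markers in 12 lists was called. Of all genes 0.341% were called, so the lack of a call among so few genes says little about cell types. The mean log2 value of 5 smooth muscle and pericyte markers was 10.47 to 10.55 in TG mice and 10.59 to 10.69 in WT mice. Of these, 2 of 5, Myh11 and Acta2, were lower by limma's p below 0.05 before adjustment, where 8.76% of all genes were. The mean of 4 adipocyte markers was 6.03 to 6.06 in TG and 6.09 to 6.17 in WT mice. Skeletal muscle markers were at 6.11 to 6.16 in TG and 6.17 to 6.31 in WT mice. The adipocyte and skeletal muscle lists were dim, and at a log2 value of 6.11 the running median difference over all genes was itself -0.074. Epicardial markers overlapped, at 6.96 to 7.09 in TG and 7.06 to 7.15 in WT mice. Among 6 markers of veins and lymphatics, at 9.10 to 9.18 in TG and 9.15 to 9.20 in WT mice, the apelin receptor gene Aplnr had the largest difference of all markers (-0.34). Among 5 leukocyte markers, at 8.39 to 8.42 in TG and 8.32 to 8.42 in WT mice, the lysozyme gene Lyz2 had the smallest p of all markers, at a log2 difference of 0.27 and an adjusted p = 0.221 from limma. Markers of endocardium were at 8.16 to 8.28 in TG and 8.20 to 8.22 in WT mice, those of red cells at 7.33 to 7.58 in TG and 7.49 to 7.67 in WT mice, and those of nerve and glia at 5.85 to 6.04 in TG and 5.93 to 6.05 in WT mice. Fibroblast markers were at 11.21 to 11.28 in TG and 11.17 to 11.19 in WT mice. Endothelial markers were at 10.64 to 10.65 in TG and 10.60 to 10.66 in WT mice, and heart muscle cell markers at 13.58 to 13.59 in TG and 13.54 to 13.59 in WT mice. The part of these cell types in the differences of the atrial genes was not tested.

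The genes that followed each atrial gene most closely over the 6 mice were sought among 607 other genes with a mean log2 value of at least 6 and an SD of at least 0.2. For Mybphl these were Pla2g2c, Armh4 and Ly75 (Pearson's r of 0.98, 0.97 and 0.96), and for Sln Fgf20, Baiap2l2 and Ctsc (0.98 each). For Tbx5 they were Arhgef16, B230110C06Rik and Fbxo44 (0.96, 0.96 and 0.93). For Pam they were Fkbp3, Myh7 and Alpl (0.99, 0.99 and 0.98), and 69 of the 607 genes passed an r of 0.9. For Stard10 they were Asb16, Slx1b and Lgals7 (0.996, 0.97 and 0.96), for Bmp10 4930556L07Rik, Npnt and Ccn3 (0.93, 0.91 and 0.90), and for Nr2f1 Inmt, Xkr8 and Fign (0.93, 0.92 and 0.91). Nr2f2 had no gene above 0.9, the closest being Flt3, Osbpl1a and Swsap1 (0.85, 0.82 and 0.79). With 6 mice in 2 groups such values describe these arrays, and the difference between the groups enters each of them.

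Promoters, from 250 bases before to 50 after the start, were given by RefSeq on GRCm38.p6 for 6 of the 8 genes, all but Sln and Tbx5. They were read on both strands for the letters of 3 sites. The T-box site searched was AGGTGT. That of nuclear receptors was AGGTCA, which begins with the same letters. The GATA factor site was AGATAA. The T-box and nuclear receptor letters were in 0 of the 6, where 15.7% and 18.1% of 27025 genes hold them. The GATA letters were in 2 of the 6, Mybphl and Bmp10, where 12.7% of genes hold them. They are shown because Mybphl had the largest difference of the 8 genes, with the match in capitals, from chr3:108364760-108364785, chr6:87428765-87428790 and chr6:87428951-87428976, all on the plus strand, and the matches start 141, 219 and 33 bases before the start.
Mybphl: ctcactcacaAGATAAcagggccacc
Bmp10, distal: tacactgggaAGATAAgagaggctag
Bmp10, proximal: acactccgcaAGATAAaactgccagt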

How the data were processed

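The ventricles of 3 TG and 3 WT mice were profiled by the authors on Affymetrix Mouse Gene 1.0 ST arrays. The authors deposited log2 values after RMA, which the submitters' processing notes name without a version, and no filter is stated. All 35556 probe sets entered the fit. Exactly 1 gene symbol was listed for 21789, several for 1621 and none for 12146, and older symbols were brought up to date with RefSeq (GRCm38.p6) by their Entrez identifiers. A gene was read from its brightest probe set with 1 symbol (19938 genes).

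The groups were compared in limma 3.58.1 (R 4.3.3) by lmFit and eBayes, with an assumed share of 0.01, over all probe sets, and the fit was tested on simulated data. Genes were named by rule: the 8 atrial genes, Myl4, Myl7, Nppa, per list those called and the 4 with the smallest p, and per atrial gene the 3 most alike. Names outside it (Kcna5, Kcnj3, Kcnj5, Hey1, Myh11, Acta2, Aplnr, Lyz2, Atp2a2, Pln) were chosen after their values were seen. The members and lists were chosen with earlier results of these data known. The number of arrays limits the precision. The mice are separate animals, and whether littermates were paired is not stated. Alternatives were other normalizations, filters, moderation, a replicate block and leaving out each mouse.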

Additional observations from a re-analysis of the deposited data

How the results depend on the processing

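The direction of each of the 8 atrial genes held under all alternatives run for it. The fit of brighter probe sets only held 4 of the 8, without Sln, Mybphl, Bmp10 and Nr2f1. Of 116 comparisons of a gene with an alternative, 115 were unchanged, and the other was Pam with an intensity trend. Unchanged means the same direction and, where a B was computed, the same side of B above 0. A gene with a B far below 0, such as Nr2f2 (-5.90), had little room to change sides. The comparison with genes of like signal gave no B and was read by direction alone. The number of the 8 genes called was 0 with 1 mouse left out, 1 with the intensity trend, and 3 at an unadjusted p under 0.05. Over all probe sets, 130 were called, against 287 with the intensity trend, 69 with the replicate block, 29 to 112 with 1 mouse left out, 2 at an adjusted p under 0.05 from limma and 5502 at an unadjusted p under 0.05. The calls were 29 and 51 without TG replicates 2 and 3, and 56 and 37 without WT replicates 1 and 2. Of the 130, 75 were lower, against 40 of 136 with each array centred on its median. Myl4 and Myl7 were also not called with centred arrays, nor was Clu after a second quantile normalization, and none of these 3 was called with the replicate block. The deviations of same-numbered mice had r of 0.024, -0.00044 and 0.057 over probe sets, and those of other pairs -0.057 to 0.034. With so few mice these values cannot show whether the number pairs littermates. The replicate block called 0 of the 8 genes.

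The median deviation of TG mice 2 and 3 was -0.031 and -0.094 with centred arrays, and that of TG mouse 3 was -0.21 without Pam. Without the 4 dimmer genes it was 0.039, -0.012 and -0.039 in TG mice 1, 2 and 3. With 1 WT mouse left out it was -0.17 to -0.15, -0.12 to -0.029 and -0.18 to -0.099 in TG mice 1, 2 and 3, with -0.029 and -0.099 in TG mice 2 and 3 without WT replicate 1. With centred arrays the log2 differences of Mybphl, Sln, Nr2f1, Bmp10, Tbx5 and Stard10 were -0.41, -0.27, -0.11, -0.087, -0.086 and -0.017. Those of Pam and Nr2f2 were 0.23 and 0.090. Centring turned the differences of Mybpc3, Rxrb and Rarg to 0.036, 0.015 and 0.016, and a second quantile normalization turned that of Casq2 to -0.00061. With 1 mouse left out Mybpc3 ranged from -0.050 to 0.012 and Mybpc1 from -0.0015 to 0.035. Other small differences of uncalled genes moved as well, such as Mybph (-0.13 to -0.034), Star (-0.27 to -0.13), Stard5 (-0.23 to -0.090), Nr2f6 (-0.17 to -0.080), Rarg (-0.065 to -0.012) and Chga (-0.17 to -0.076). The cause of these moves was not tested. Each of the 8 genes had 1 probe set, so a mean over probe sets was not run. The comparison with genes of like signal was added after seeing the data.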
